A study of Mus musculus with 31 samples.

Results

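Livers of 14-day-old mice that had no thyroid and received both thyroid hormones were compared with livers of mice that kept a thyroid. The treated group was 7 athyroid livers, of genotype Dio1KO/Dio2KO/Pax8KO, from pups given T4 (thyroxine) and T3 (triiodothyronine) together, called T3+T4 livers here. The control group was 5 livers of genotype Dio1KO/Dio2KO/Pax8Het from pups given vehicle. Livers were assigned by their source name, and these 12 of the 31 livers in the series carried the comparison. The remaining 19 livers were Dio1KO/Dio2KO/Pax8KO pups given vehicle (5), T4 alone (8) or T3 alone (6), and they show where the athyroid liver stood without the second hormone or without any. All pups had the C57Bl/6J background and lacked both type 1 and type 2 deiodinase, the controls included, and injections were given every other day from postnatal day 2. No liver with intact deiodinases was part of the design, so a return to control means a return to a liver that lacks both enzymes as well. Hormone doses and the serum hormone levels reached were not given in the sources used here. Nothing in the labels names a Cre driver, a litter or a shared mother, so each liver was treated as 1 independent animal.

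T4 is the main product of the thyroid gland and T3 is the form that binds the nuclear receptors with the highest affinity. Type 1 and type 2 deiodinase convert T4 to T3, and type 3 deiodinase inactivates both hormones. Pax8 is the transcription factor that thyroid follicular cells need to form, so Pax8-null mice have almost no hormone of their own. In hepatocytes the bound receptor, mostly the beta form, switches on genes of lipid synthesis, cholesterol turnover and hormone metabolism, and it also lowers the messages of a smaller group of genes. The question was how closely injection of both hormones brought the liver back to control levels.

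Poly(A) RNA of whole liver was sequenced, and values are given as CPM, the count relative to library size after TMM scaling, a correction for composition between libraries. The deposited counts summed to 4955859 to 5967157 per control library and to 5531724 to 7158919 per T3+T4 library. Some features of the libraries moved with the groups. By their sex-linked messages 4 of 5 control pups and 2 of 7 T3+T4 pups were female, and 1 T3+T4 pup did not match its labelled sex. Animal numbers 54 to 85 held 1 of 5 controls and all 7 T3+T4 pups. The mean level of the pancreatic acinar markers reached 5 CPM in 1 control (of 5) and 3 T3+T4 livers (of 7), and that of striated muscle markers in 0 controls and 2 T3+T4 livers. The defining hepatocyte messages were present throughout: the 9 measured markers, among them Alb (albumin) and Apoa1, summed to 5960 to 6700 CPM in control and 4660 to 6140 CPM in T3+T4 livers. In whole tissue, fewer cells of a type and less RNA per cell cannot be told apart.

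Across the transcriptome, no gene passed edgeR's adjusted threshold between T3+T4 and control livers. Of 17057 genes tested with edgeR's quasi-likelihood test, 0 had a Benjamini-Hochberg adjusted p under 0.05 (0% of genes), 1226 had an unadjusted p under 0.05 (7.19%), and those were split into 626 higher and 600 lower. Non-overlapping libraries were found for 124 genes (0.727%). Estimates were centred, with a median log2 difference of 0.005. The difference was bounded for most genes: for 12254 of them (71.8%) the whole 95% confidence interval lay within 1.5-fold of control in either direction. For the other genes the interval reached past 1.5-fold, and equality with control was not shown for them. The share bounded in this way was 60.6% for vehicle against control and 72.3% for T3+T4 against T4 livers. By itself it is therefore no measure of a return to control. DESeq2, run as a second tool, called 0 genes higher and 50 lower, among them Cp (ceruloplasmin), Fgg, Apoa1, Igf2 and H19. The median log2 difference of those 50 was -0.21, and 44 of them (88%) were messages with more than 0.5 counts per exonic base. Counts in the deposited table level off near 2 per exonic base, so the most abundant messages were measured with a compressed range. With that ceiling corrected, DESeq2 called 4 genes (Dlk1, Gpr97, Syt14 and Gucy2c), and 0 of these were among the 50. In that order they lay at 0.0382, 0.0115, 0.00467 and 0.0491 counts per exonic base, far below the ceiling. Why the calls changed between the DESeq2 runs was not tested.

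The same control livers differed from untreated athyroid livers at many genes. Against control, vehicle livers had 839 genes higher and 803 lower by edgeR (9.63% of genes, adjusted p under 0.05), and 265 and 264 of these differed by more than 2-fold; 1585 genes (9.29%) had non-overlapping libraries. Against vehicle livers, T3+T4 livers had 1251 genes higher and 1441 lower (15.8%), and 323 and 222 of these differed by more than 2-fold. The split of the second count moved with the scaling and the filter: with library totals alone it was 1670 higher and 1105 lower, and with no filter on low counts 1806 and 726. Depending on single libraries, the vehicle against control count dropped to 966 without control 49, 935 without control 50 and 1011 without vehicle 38. It was 3 within animals 54 to 85, where 1 control and 2 vehicle livers remain, and 689 without the libraries that carried acinar or muscle messages; T3+T4 against vehicle gave 794 and 685 in those settings. Both comparisons share libraries with the comparison of T3+T4 and control livers, so their counts are given side by side and no agreement between them was computed.

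**Figure D1:**
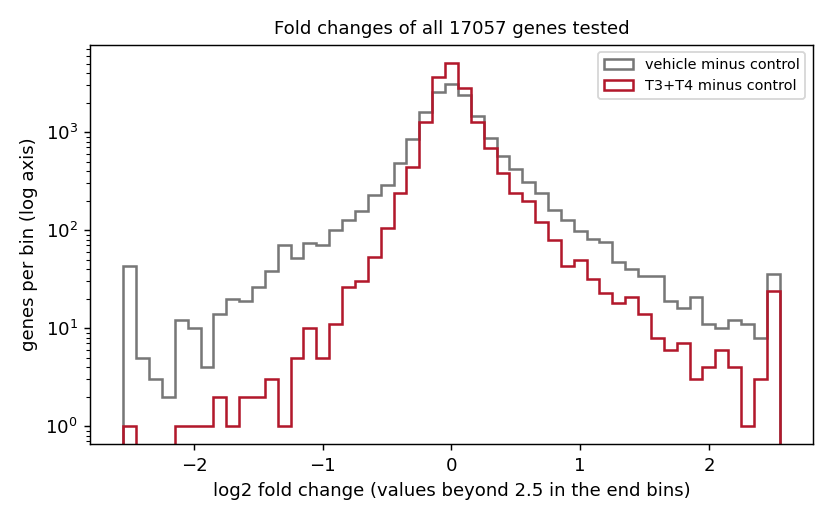
Histograms of log2 differences over the 17057 genes tested for T3+T4 minus control and for vehicle minus control livers (x axis, log2 units, with values beyond 2.5 gathered in the end bins; y axis, genes per bin on a log axis). The T3+T4 minus control estimates are centred at 0.005 with no gene called, whereas 1642 genes were called for vehicle minus control.

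Each library was also placed by its distance from the control livers, defined as the root mean square log2 difference from the control mean over all genes tested, with a control library left out of its own mean. Controls lay at 0.38 (animal 42), 0.402 (47), 0.297 (49), 0.327 (50) and 0.375 (59). T3+T4 livers lay at 0.37 (animal 72), 0.341 (77), 0.539 (78), 0.388 (79), 0.341 (80), 0.358 (84) and 0.37 (85). All but 1 of the T3+T4 libraries were therefore inside the range of the controls, and animal 78 lay above it. The mean distance was 0.387 ± 0.069 (SD, n = 7) for T3+T4, 0.561 ± 0.04 (n = 5) for vehicle, 0.481 ± 0.053 (n = 8) for T4 and 0.497 ± 0.126 (n = 6) for T3 livers. Depth also moved with the groups. The median library total was 6424333 counts for T3+T4, 5322022 for vehicle, 5298959 for T4 and 6145942 for T3 livers. The part of depth in the distances was not tested. T3+T4 livers were closer to control than vehicle livers (exact two-sided permutation test, p = 0.00379, adjusted over 3 comparisons 0.0114) and closer than T4 livers (p = 0.0151, adjusted 0.0226, exact permutation). The latter call, a difference of -0.094, was lost with no filter on low counts (-0.055) and without the libraries that carried acinar or muscle messages (-0.136). The difference from T3 livers did not pass (p = 0.0571, adjusted 0.0571, exact permutation), and it did pass without T3 62, without T3 65 or without T3+T4 78, where the difference in means was between -0.134 and -0.131, against -0.11 with all libraries. Without the libraries that carried acinar or muscle messages, 3 T3+T4 and 3 vehicle livers were left, a size at which p cannot go below 0.1, and the difference in mean distance was -0.247.

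**Figure D2:**
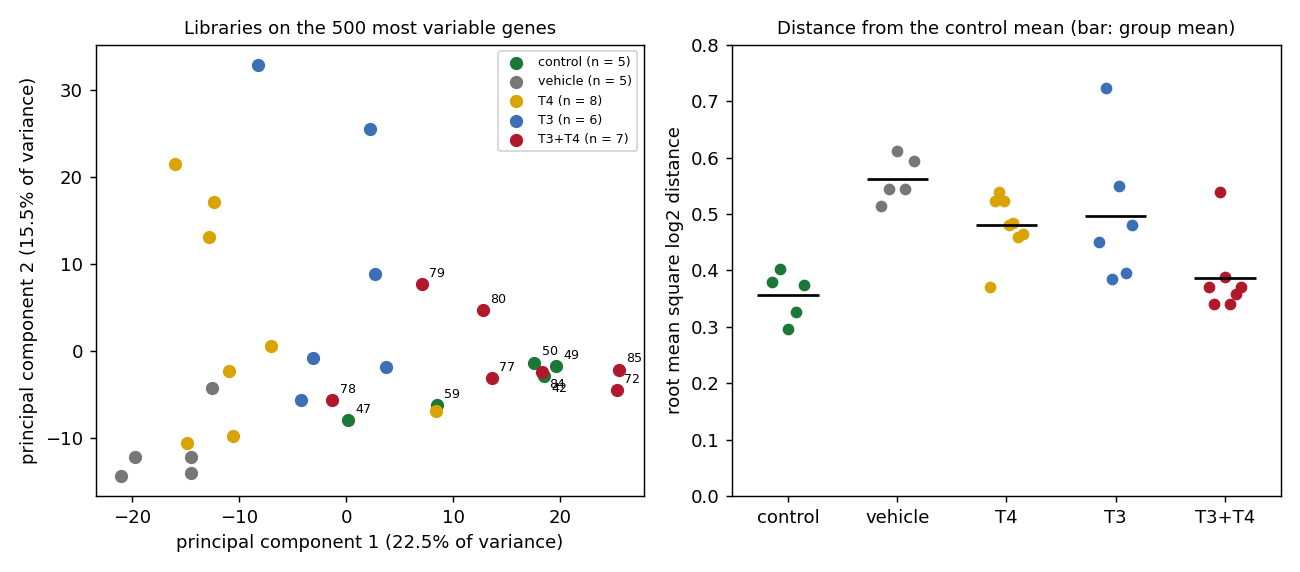
Left, the 31 libraries on the first and second principal components (22.5% and 15.5% of the variance); right, each library's distance from the control mean in log2 units, by group, with points for animals. T3+T4 livers span 0.341 to 0.539 and control livers 0.297 to 0.402, and every vehicle liver lies at 0.515 or above.

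The genes that stood furthest from control in untreated athyroid livers show the range of outcomes under both hormones. The 6 largest rises and 6 largest falls in vehicle livers were picked by that comparison, so their vehicle levels describe the choice and are no result, and the control livers they were measured against are the same ones used here. For 7 of these 12 genes the 95% interval of T3+T4 minus control held 0, and for 5 it did not (Dlk1, Gucy2c, Cxcr2, Csrp3 and Col4a3). No adjusted p passed in this comparison. Of all genes 7.19% had an unadjusted p under 0.05, but the 12 were chosen for large differences from these same controls. Dlk1, Gucy2c and Cxcr2 lay above control on the side of vehicle livers. Csrp3 and Col4a3 lay above control on the side away from vehicle livers. Because thyroid hormone receptors bind the half-site AGGTCA, the 250 bases upstream of each start were searched for it on both strands. A promoter was matched for 9 of the 12 genes in RefSeq (build GRCm38.p6), and 3 held the half-site, against 13.8% of 27025 promoters of that length; a match is a description of the letters, not evidence of binding. The promoters of Tuba8 (chr6:121210484-121210733, plus strand), Cxcr2 (chr1:74153744-74153993, plus strand) and Amy2a1 (chr3:113532429-113532678, minus strand) are shown because they are those with a match among the genes of this group. They are written 5′ to 3′ along the gene with the half-site, or its reverse complement TGACCT, in capitals.
Tuba8: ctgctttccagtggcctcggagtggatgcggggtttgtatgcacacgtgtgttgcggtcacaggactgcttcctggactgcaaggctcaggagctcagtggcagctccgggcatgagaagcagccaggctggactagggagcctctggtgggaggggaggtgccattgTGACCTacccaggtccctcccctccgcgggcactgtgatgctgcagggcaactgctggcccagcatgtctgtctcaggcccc
Cxcr2: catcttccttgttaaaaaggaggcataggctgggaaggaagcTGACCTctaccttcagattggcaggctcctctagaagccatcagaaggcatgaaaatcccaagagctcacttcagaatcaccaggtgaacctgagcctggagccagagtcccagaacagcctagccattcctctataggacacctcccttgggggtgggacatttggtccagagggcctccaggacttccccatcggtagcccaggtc
Amy2a1: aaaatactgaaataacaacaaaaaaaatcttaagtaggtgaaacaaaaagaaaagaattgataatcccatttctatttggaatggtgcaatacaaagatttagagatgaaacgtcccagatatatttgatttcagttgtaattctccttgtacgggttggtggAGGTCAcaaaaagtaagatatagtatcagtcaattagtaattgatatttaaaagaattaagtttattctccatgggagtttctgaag
The match began 82 bases before the start of Tuba8, 208 before Cxcr2 and 87 before Amy2a1.

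Among the 6 genes chosen for high levels in vehicle livers, Dlk1 (ENSMUSG00000040856, chr12:109452823-109463336), an imprinted Notch-family ligand of fetal liver, was the furthest from control under both hormones. Controls had 2.57, 10.7, 3.75, 4.46 and 6.48 CPM, in the order of animals 42, 47, 49, 50 and 59 kept throughout. T3+T4 livers ranged from 9.74 to 43.3 CPM around a median of 32.3, and 6 of 7 lay above every control. Their mean of 29.3 ± 10.9 was 5.17-fold that of control (log2 difference 2.37 ± 0.42 SE, 95% interval 1.51 to 3.23), with an edgeR adjusted p of 0.0714. It passed the threshold in 4 of 25 other ways of running the comparison (with sex as a covariate, by DESeq2 with the ceiling corrected, without control 47 and without T3+T4 72), and its adjusted p over the 25 ranged from 1.88e-06 to 1 with log2 differences of 2.12 to 2.76. Vehicle livers averaged 58.1 ± 15.7, T4 livers 57.5 ± 25.1 and T3 livers 33.5 ± 12.5 CPM. Dlk1 was picked for its high vehicle values, so a fall from vehicle livers shares those values and is no independent test. The fall of 0.99 ± 0.34 log2 units from vehicle to T3+T4 livers passed (edgeR adjusted p = 0.043) but was lost in 12 of the 25 settings, among them those without vehicle 2019, 37, 38 or 67 and without T3+T4 72, 77, 84 or 85.

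Gucy2c, the receptor guanylate cyclase best known from intestine, followed a similar course. Controls had 10.5, 16.1, 11.7, 5.88 and 10.5 CPM and T3+T4 livers 15.4 to 32 with a median of 25, so that 6 of 7 lay above the controls. The log2 difference was 1.15 ± 0.25 (0.63 to 1.67, adjusted p = 0.209), while vehicle livers averaged 60.7 ± 14.5 CPM. Cxcr2, a chemokine receptor of neutrophils, had 1.28, 2.37, 1.97, 2.64 and 1.91 CPM in controls and 2.39 to 6.3 with a median of 4.06 in T3+T4 livers. Again 6 of 7 exceeded the controls, with a log2 difference of 1.05 (0.07 to 2.03, adjusted p = 0.656). The summed neutrophil markers, which include Cxcr2, spanned 45.9 to 154 CPM in control and 72.2 to 236 CPM in T3+T4 livers, and none of the 11 was called; their part in the Cxcr2 values was not tested.

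For the other genes chosen for high vehicle levels the T3+T4 and control libraries overlapped. Slc4a9, an anion exchanger, had 0.917, 7.62, 0.79, 1.42 and 2.29 CPM in controls and 0.735 to 3.08 with a median of 1.52 in T3+T4 livers, against 43.8 ± 30.9 in vehicle livers. The interval for Slc4a9 was wide, at -2.99 to 1.77 log2 units. Tuba8, an alpha tubulin, had 2.75, 10.8, 5.13, 6.49 and 4.38 CPM in controls and 6.86 to 12.7 with a median of 9.67 under both hormones (0.62, interval -0.26 to 1.5), against 39.1 ± 9.39 in vehicle livers. Gprc5b, an orphan G protein-coupled receptor, had 4.04, 6.6, 3.36, 3.04 and 4.76 CPM in controls and 3.19 to 8.33 with a median of 4.4 under both hormones (0.23, interval -0.44 to 0.91), against 25.6 ± 11 in vehicle livers.

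The 6 genes chosen for low vehicle levels were Ntrk2, Amy2a1, Csrp3, Col4a3, Clec2h and Dio1, and all but Ntrk2 had a T3+T4 mean at or above the control mean. Dio1 is described with the genes that handle the hormones. Ntrk2, the receptor for brain-derived neurotrophic factor, had 228, 25, 147, 149 and 96.2 CPM in controls, 28.1 to 196 with a median of 81.1 in T3+T4 livers and 5.54 ± 3.5 in vehicle livers. All 7 T3+T4 livers were inside the control range, which was itself broad (log2 difference -0.44, interval -1.54 to 0.66). Amy2a1, a pancreatic-type amylase from a cluster of near-identical genes whose reads may be shared, had 19.6, 12.9, 56.9, 35.7 and 25.5 CPM in controls and 20 to 43.2 with a median of 31.4 in T3+T4 livers. Here too all 7 were inside the control range (0.09, interval -0.73 to 0.91), and vehicle livers averaged 2.17 ± 2.06. Acinar markers were raised in control 47 (12.9 CPM of Amy2a1, the lowest control), in T3+T4 78, 79 and 85 (23.4, 38.4 and 43.2 CPM, the last the highest T3+T4 value) and in vehicle 2019 and 37 (2.86 and 5.47 CPM, the highest vehicle values). Their part in the Amy2a1 values was not tested.

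Csrp3, a LIM protein of striated muscle, had 13.2, 6.43, 11.8, 10.5 and 5.53 CPM in controls and 11.7 to 20 with a median of 15.5 in T3+T4 livers, 5 of them above all controls (0.76, interval 0.09 to 1.43, adjusted p = 0.621). Striated muscle markers summed to 2.64 to 3.81 CPM in control and 2.94 to 98.2 in T3+T4 livers; their part in the Csrp3 values was not tested. Col4a3, a collagen chain of basement membranes, had 18.3, 8.8, 56.9, 33.1 and 13.9 CPM in controls and 15.7 to 122 with a median of 23.3 under both hormones, 3 of them above the controls (1.04, interval 0.02 to 2.06, adjusted p = 0.681). Clec2h, a C-type lectin-like gene, had 38.7, 13, 30.6, 39.3 and 30.1 CPM in controls and 17.4 to 81.6 with a median of 36 under both hormones (0.35, interval -0.78 to 1.48). Vehicle livers were at 0.843, 2.42 and 3.78 CPM on average for these 3 genes.

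**Figure D3:**
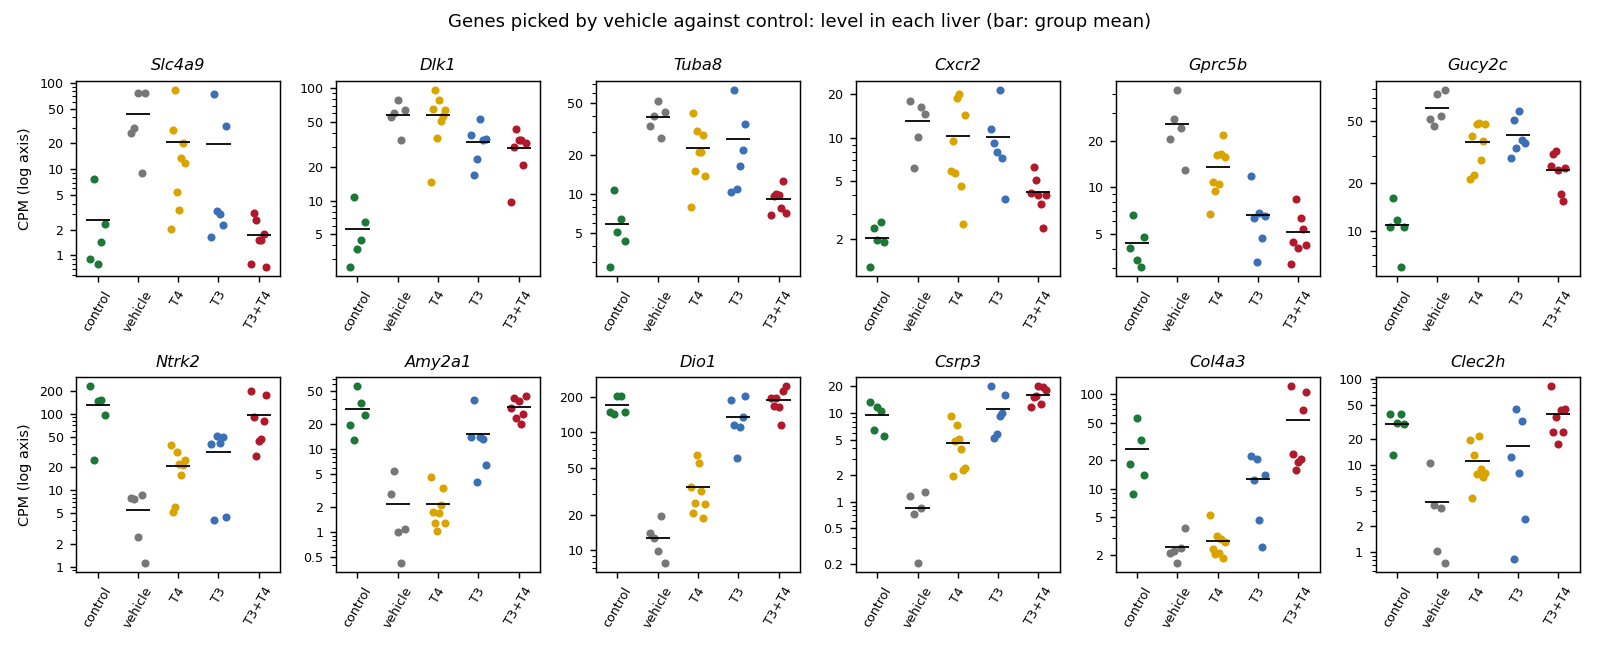
CPM on a log axis for the 12 genes with the largest rises and falls in vehicle against control livers, 1 panel per gene, with a point for each animal in each of the 5 groups and a bar at the mean. T3+T4 points sit among the control points for Ntrk2 and Amy2a1, and 6 of 7 sit above them for Dlk1, Gucy2c and Cxcr2.

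Of the genes that handle the hormones, Dio1 (ENSMUSG00000034785, chr4:107291465-107307169), which encodes type 1 deiodinase and is itself induced by T3, gave reads in every library although all pups carry the Dio1 knockout. Which exons the alleles lack is not given in the sources used here, so these reads measure activity of the locus and do not check the genotype. Controls had 148, 142, 204, 203 and 148 CPM. T3+T4 livers had 115 to 245 with a median of 195: 4 of 7 lay within the control range, 2 above and 1 below. The log2 difference was 0.14 ± 0.27 (interval -0.40 to 0.68, adjusted p = 0.974). Vehicle livers averaged 12.7 ± 4.42, T4 livers 34.3 ± 16.7 and T3 livers 135 ± 53.2 CPM. Dio1 was also among the genes picked for low vehicle levels, so its rise over vehicle livers shares the values that chose it. Against vehicle the rise was 3.88 ± 0.33 log2 units (edgeR adjusted p = 6.77e-09) and against T4 alone 2.44 (adjusted p = 1.68e-06), and against T3 alone the difference of 0.47 did not pass (adjusted p = 0.45).

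Dio3 (ENSMUSG00000075707, chr12:110279068-110281097) encodes the inactivating deiodinase, an enzyme of fetal tissues. Controls had 5.32, 8.29, 2.96, 3.45 and 8.19 CPM and T3+T4 livers 0.735 to 4.44 with a median of 3.52, so 5 of 7 were within the control range and 2 were below it. The log2 difference from control was -0.85 ± 0.39 (interval -1.64 to -0.05, adjusted p = 0.657), and the fall from the vehicle mean of 14.6 ± 3.74 passed (-2.21, edgeR adjusted p = 0.000162). Pax8 (ENSMUSG00000026976, chr2:24420560-24475599) and Dio2 (ENSMUSG00000007682, chr12:90724552-90738438) were near the floor of the assay in liver, with control means of 1.1 ± 0.198 and 3.19 ± 0.588 CPM and T3+T4 means of 1.75 ± 0.834 and 2.85 ± 0.804. No deposited value is below 1, and levels this low cannot check either knockout.

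Thrsp (Spot 14, ENSMUSG00000035686, chr7:97412938-97417730), a lipogenic protein that responds quickly to T3, varied widely within both groups. Controls had 73.4, 2.71, 44.8, 26.2 and 24.2 CPM and T3+T4 livers 9.81 to 142 with a median of 46.5. The control range held 5 of the 7 treated livers and 2 lay above it (log2 difference 0.95 ± 0.63, interval -0.34 to 2.24, adjusted p = 0.834). Vehicle, T4 and T3 livers averaged 2.87 ± 1.11, 7.74 ± 8.04 and 7.89 ± 7.48 CPM.

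Curated gene lists gave the wider picture. The 33 lists held 472 distinct genes that could be tested, and 0 of these were called between T3+T4 and control livers, as for all genes (0%). Members with an unadjusted p under 0.05 are therefore counted below against the share over all genes, 3.67% higher and 3.52% lower, and every one of them missed the adjusted threshold. Some members named below were chosen, up to 3 per list, for the smallest adjusted p of vehicle against control. Their vehicle levels describe that choice and are no result. Comparisons of T3+T4 livers with vehicle or control livers at these members share the values used to choose them.

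Thyroid hormone-induced genes, Thrsp and Dio1 among them, had a median at control level. The median log2 difference of the 21 genes was 0.01, with 0 members at an unadjusted p under 0.05. In vehicle livers 7 of the 21 were lower than control and 0 higher (4.71% of all genes were lower, 4.92% higher), and 9 were higher in T3+T4 than in vehicle livers with 1 lower (7.33% and 8.45% of all genes). Gpd2, the mitochondrial glycerol phosphate dehydrogenase and a long-known T3 target, averaged 242 CPM in both control and T3+T4 livers, with an interval of -0.59 to 0.58 log2 units. Abcd3, a peroxisomal fatty acid transporter, averaged 359 CPM in control, 349 in T3+T4 and 249 in vehicle livers, with a narrow T3+T4 minus control interval of -0.17 to 0.08. Bcl3, a nuclear IkB-family protein, averaged 40.1 and 40.9 CPM (-0.37 to 0.43) and 18 CPM in vehicle livers. Klf9, a zinc-finger factor induced by T3 in many tissues, averaged 140 CPM in both groups, though its interval was wider at -0.54 to 0.54.

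Of the 19 genes of hormone transport, binding and metabolism, 4 were lower in T3+T4 than in control livers at an unadjusted p under 0.05 and 0 higher (all genes, 3.52% lower): Dio3, Ttr (transthyretin, 279 and 235 CPM), Alb (603 and 532 CPM) and Ugt1a1, a glucuronosyltransferase (79.9 and 71.4 CPM). Over the settings tried the count lower was 0 to 5. Of the 19 genes, 8 were above 0.5 counts per base, where the range is compressed, and its part in these differences was not tested. Serpina7, the thyroxine-binding globulin of plasma, averaged 161 ± 57.3 CPM in control, 144 ± 59.7 in T3+T4 and 393 in vehicle livers; the T3+T4 minus control interval was -0.65 to 0.34, and from vehicle to T3+T4 livers it fell by 1.45 log2 units (edgeR adjusted p = 0.000141). Slco1a1, an organic anion transporter, averaged 8.88, 8.6 and 35.4 CPM in the same order (interval -0.8 to 0.7). The receptor genes were tightly bounded: Thra averaged 53.4 and 54.8 CPM (interval -0.1 to 0.17) and Thrb 138 and 135 CPM (interval -0.27 to 0.2). Over the 16 receptor and coregulator genes the median difference was -0.03 and 0 had an unadjusted p under 0.05.

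Among the 33 lists, that of cholesterol synthesis and uptake held the most members above control. Of its 25 genes, 9 were higher at an unadjusted p under 0.05 and 0 lower (all genes, 3.67% higher), and the list's median log2 difference was 0.42, which stayed between 0.33 and 0.62 over the settings tried. The count of 9 was less stable. It was 0 within animals 54 to 85, 6 without the libraries that carried acinar or muscle messages, 2 without control 42 or control 47, 3 without T3+T4 84, 4 without T3+T4 85, 12 without control 49 and 14 without control 50 or T3+T4 79. Mvd, mevalonate diphosphate decarboxylase (chr8:122433601-122443422), had 5.5, 6.94, 12, 22.5 and 9.91 CPM in controls and 9.81 to 53.2 with a median of 18.4 in T3+T4 livers. The groups overlapped and the log2 difference was 1.15 (0.46 to 1.84, adjusted p = 0.406). Sqle, squalene epoxidase, averaged 41.8 and 87.1 CPM (1.07, interval 0.02 to 2.11).

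Other members of the cholesterol list did not share this. Hmgcs1, a cytosolic enzyme early in the pathway, averaged 348 and 365 CPM (interval -0.27 to 0.42) and Sc5d, a sterol desaturase, 367 and 360 CPM (interval -0.27 to 0.21). Srebf2, the transcription factor of the pathway, averaged 151 and 176 CPM (interval -0.08 to 0.52). Against vehicle livers, in which 11 of the 25 were lower than control (4.71% of all genes), 18 of 25 were higher and 0 lower in T3+T4 livers by the edgeR threshold (background 7.33%).

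The median over 22 lipogenesis genes was 0.14, with members from -0.22 to 0.95; 0 were called, and 3 were higher at an unadjusted p under 0.05 and 0 lower (0 to 6 higher over the settings). Fasn, fatty acid synthase (chr11:120805846-120824547), had 158, 122, 197, 196 and 168 CPM in controls and 183 to 372 with a median of 210 in T3+T4 livers, 4 of them above the controls (0.57, interval 0.19 to 0.95, adjusted p = 0.443). Acaca, acetyl-CoA carboxylase, had 119, 139, 144, 132 and 133 CPM in controls and 149 to 173 with a median of 158 in T3+T4 livers. The Acaca ranges did not overlap, although the difference was small at 0.26 log2 units (0.1 to 0.41, adjusted p = 0.406). Me1, the malic enzyme that supplies NADPH, averaged 74.4 ± 24.7 and 117 ± 37.3 CPM (0.65, interval -0.05 to 1.35). In the same list Srebf1 and Scd1 lay slightly below control, with log2 differences of -0.1 (interval -0.61 to 0.41) and -0.22 (interval -1.29 to 0.85).

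Over the 24 fatty acid oxidation genes the median was -0.11, with 9 lower at an unadjusted p under 0.05 and 0 higher (all genes, 3.52% lower); the count was 0 within animals 54 to 85, 1 with library total as a covariate, 4 with no filter on low counts, 5 with library totals alone and 6 without the libraries that carried acinar or muscle messages. Of the listed oxidation genes, 10 were above 0.5 counts per base, where the range is compressed. The 638 messages above that level had a median of -0.11, and of -0.08 with the ceiling corrected. Other lists also had members lower at an unadjusted p under 0.05, with 0 higher: 8 of 19 coagulation and complement genes, 5 of 9 hepatocyte markers, 4 of 10 endothelial markers and 5 of 24 oxidative phosphorylation genes. Over the settings tried these counts were 0 to 9, 0 to 5, 0 to 5 and 0 to 8. In the same order, 11, 8, 0 and 3 members of these lists were above 0.5 counts per base. The cause of the lower values was not tested. Acadm, the medium-chain dehydrogenase, averaged 237 ± 8.3 and 207 ± 17.1 CPM (-0.2, interval -0.33 to -0.06). Cyp4a10, a fatty acid hydroxylase controlled by PPAR-alpha, averaged 149 CPM in control, 148 in T3+T4 and 331 in vehicle livers (interval -0.55 to 0.53), and Cpt1a 599, 558 and 593 CPM (interval -0.29 to 0.08). The lists of sugar metabolism and of bile acids had medians of -0.08 over 20 and -0.07 over 19 genes. Cyp7a1, the rate-limiting enzyme of bile acid synthesis, averaged 251 and 280 CPM (interval -0.56 to 0.88), and Pck1, the gluconeogenic carboxykinase, 674 and 647 CPM (interval -0.24 to 0.12).

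The growth hormone and insulin-like growth factor axis had a median of -0.11 over 16 genes. Stat5a, a signal transducer of the growth hormone and prolactin receptors, averaged 84.2 ± 11.4 CPM in control, 80.8 ± 11.3 in T3+T4 and 35.4 in vehicle livers (interval -0.32 to 0.2). Prlr, the prolactin receptor, averaged 530, 489 and 256 CPM in that order (interval -0.53 to 0.3), and Igf1, the main circulating growth factor made by liver, 1170, 1110 and 757 CPM (interval -0.43 to 0.29).

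Igf2 (ENSMUSG00000048583, chr7:142650766-142666816), the fetal growth factor, was 1 of 3 genes of that axis that were lower at an unadjusted p under 0.05, with 0 higher (2 to 4 lower over the settings); the others were the binding proteins Igfbp2 (-0.24, interval -0.42 to -0.07) and Igfbp4 (-0.18, interval -0.3 to -0.06). Controls had 978, 1030, 958, 1200 and 1060 CPM and T3+T4 livers 278 to 764 with a median of 584. All 7 treated livers lay below all 5 controls, with a log2 difference of -0.91 ± 0.25 (interval -1.42 to -0.39, edgeR adjusted p = 0.406, DESeq2 adjusted p = 0.024). The gene was at 0.829 counts per base, and with the ceiling corrected the difference was -1.07 (edgeR adjusted p = 0.512). Vehicle livers averaged 1010 ± 116 CPM and were not called against control (-0.04, adjusted p = 0.948); T4 livers averaged 1030 ± 263, and T3 livers 666 ± 309 with a range of 300 to 1010. The fall from vehicle to T3+T4 livers passed (-0.86 ± 0.25, edgeR adjusted p = 0.018), as did that from T4 (-0.89, adjusted p = 0.0139). The former was lost in 4 other settings (no filter, animals 54 to 85, library total as covariate, and without the libraries that carried acinar or muscle messages), and the latter in the last 2 of these.

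The median difference over the 14 imprinted and fetal genes was -0.08, with 0 called and 3 higher and 2 lower at an unadjusted p under 0.05 (1 to 4 and 0 to 3 over the settings). Meg3, the noncoding RNA of the Dlk1 domain, had 58, 24.9, 22.5, 23.9 and 22.5 CPM in controls and averaged 30.1 ± 10.9 in T3+T4 livers against 92.6 ± 11.6 in vehicle livers. Its T3+T4 minus control difference was -0.01 (interval -0.6 to 0.59), beside the 2.37 given for Dlk1. Plagl1, a zinc-finger factor of the imprinted network, averaged 48.8 and 70.1 CPM (0.52, interval 0.11 to 0.94, adjusted p = 0.56). H19, the RNA next to Igf2, averaged 567 and 442 CPM (-0.36, interval -0.57 to -0.15, adjusted p = 0.406, 1.18 counts per base).

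Proliferation genes had wide intervals. The 20 cell cycle genes had a median difference of -0.19 from control, with 0 at an unadjusted p under 0.05, and a median of -0.96 in vehicle livers, where 5 were lower (4.71% of all genes). Mki67, the proliferation antigen, averaged 234 CPM in control, 162 in T3+T4 and 103 in vehicle livers (T3+T4 minus control -0.53, interval -1.31 to 0.24), and Top2a, topoisomerase of dividing cells, 103, 81.4 and 42.5 CPM (-0.34, interval -1.07 to 0.4). Ccnd1, cyclin D1, averaged 167 CPM in both control and T3+T4 livers.

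The marker lists of single cell types held 0 called genes, and their sums differed modestly for most types. Stellate cell markers summed to 1550 to 1600 CPM in control and 1290 to 1440 in T3+T4 livers, which did not overlap, and to 1180 to 1430 in vehicle livers. Differences of the 12 stellate markers ranged from -0.42 to 0.57 with a median of -0.14. At an unadjusted p under 0.05, 3 were lower and 0 higher (all genes, 3.52% lower), and 1 to 5 were lower over the settings. The lowest was Lrat, which stores retinol in those cells and averaged 165 and 124 CPM (-0.42, interval -0.76 to -0.07, adjusted p = 0.599). Endothelial markers summed to 1200 to 1400 and 1050 to 1290 CPM, Kupffer cell markers to 1120 to 1500 and 1160 to 1590, erythroid markers to 939 to 1150 and 803 to 1110, and lymphocyte markers to 97.2 to 220 and 123 to 215. Those ranges overlapped. Acinar and striated muscle markers, which a few libraries carried, had median log2 differences of 1.39 and 3.23 with 0 called. The part of any of these cell types in the differences given here was not tested.

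**Figure D4:**
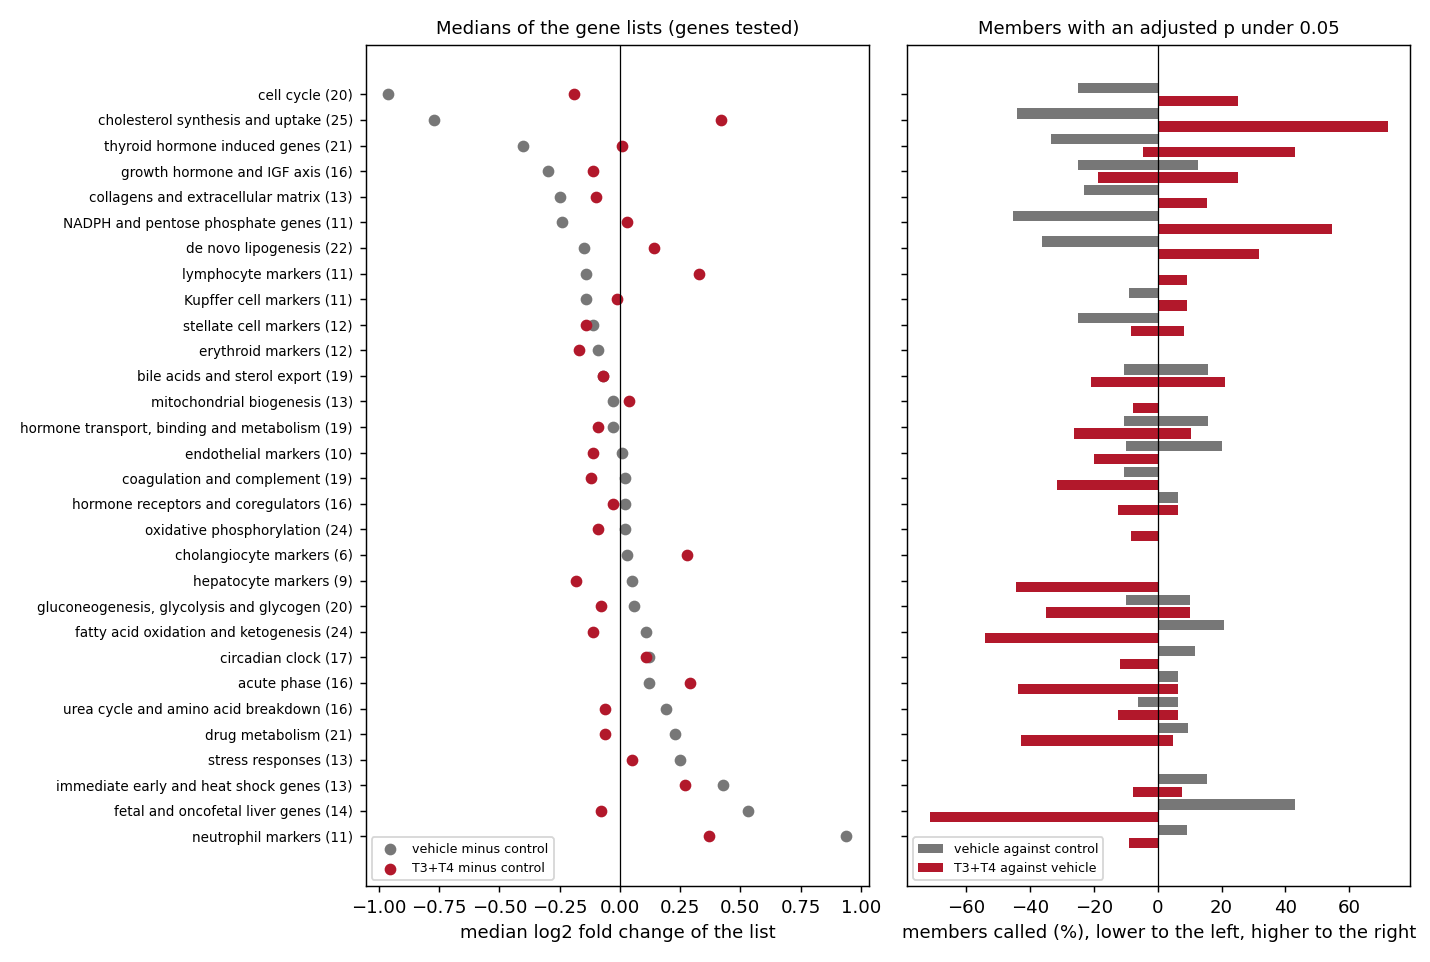
Left, the median log2 difference of each gene list for T3+T4 minus control (red) and vehicle minus control (grey); right, the percent of members called by edgeR for vehicle against control and T3+T4 against vehicle, lower to the left; the acinar, muscle and sex-linked lists are not drawn. The cholesterol list lies at 0.42 for T3+T4 and -0.77 for vehicle livers, and the thyroid hormone-induced list at 0.01 and -0.4.

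The genes furthest apart between T3+T4 and control livers were taken by a rule set after their values had been seen: the 6 highest and 6 lowest differences among genes of at least 5 CPM whose libraries did not overlap and whose unadjusted p was under 0.05. They are therefore descriptions, and each missed the adjusted threshold. The largest was Hsd3b5, a steroid dehydrogenase that is male-biased in adult mouse liver (chr3:98618634-98630252). Controls had 4.22, 2.2, 1.38, 3.24 and 2.1 CPM and T3+T4 livers 6.11 to 18.3 with a median of 7.53 (1.9 ± 0.47, interval 0.94 to 2.86, adjusted p = 0.321). With 4 of 5 controls and 2 of 7 T3+T4 pups female by their sex-linked messages, sex moved with the groups; over the 25 other settings, sex as a covariate among them, the Hsd3b5 difference was 1.35 to 2.26 and it was called in 0 (adjusted p 0.059 to 1). The male control, animal 59, had 2.1 CPM, and the female T3+T4 animals 78 and 85 had 7.39 and 7.53. These are single animals, and beyond that covariate the part of sex in the Hsd3b5 values was not tested. Vehicle, T4 and T3 livers averaged 6.33 ± 3.1, 7.24 ± 4.44 and 2.74 ± 1.71 CPM. By their sex-linked messages 2 of 5 vehicle, 2 of 8 T4 and 5 of 6 T3 pups were female. The groups with mostly female pups, control and T3, thus had the lowest Hsd3b5 means.

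Syt14, a synaptotagmin (chr1:192891233-193035775), had 5.32, 6.43, 5.92, 4.26 and 5.15 CPM in controls and 7.39 to 15.5 with a median of 12.7 in T3+T4 livers (1.11 ± 0.21, interval 0.67 to 1.54, adjusted p = 0.107). Vehicle livers stood as high, at 11.2 ± 2.87 CPM, and T4 and T3 livers averaged 9.5 and 10.2. Gpr97, an adhesion G protein-coupled receptor (chr8:95017692-95045250), was the reverse. Controls had 26.1, 24.9, 20.7, 28.4 and 27.3 CPM and T3+T4 livers 7.1 to 19 with a median of 10.7 (-1.15 ± 0.23, interval -1.61 to -0.69, adjusted p = 0.119), and vehicle livers averaged 7.83 ± 2.21. For Syt14 the T3+T4 minus vehicle difference was 0.07, and for Gpr97 it was 0.55 and did not pass (edgeR adjusted p = 0.132). Together with Dlk1 these were genes at which the treated livers stood between untreated and control livers or level with untreated ones. Gpr97 was called in 3 of the 25 other settings and Syt14 in 2, by DESeq2 with the ceiling corrected and without T3+T4 78.

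Further genes of the same kind differed by less. Kank4, a cytoskeletal adaptor, averaged 4.29 ± 0.144 CPM in control and 7.28 ± 1.71 in T3+T4 livers (0.76, interval 0.32 to 1.2), with 8.74 in vehicle livers. Epha3, an ephrin receptor, averaged 12.7 ± 1.07, 9.15 ± 1.22 and 7.23 CPM in that order (-0.48, interval -0.75 to -0.2), and C1qtnf6, a secreted C1q-family protein, 68.1 ± 3.97, 49.8 ± 7.52 and 31.8 CPM (-0.45, interval -0.88 to -0.02). In these 3 the T3+T4 mean lay between control and vehicle. Slc6a9, a glycine transporter, was instead higher in T3+T4 livers (13.5 ± 3.73 CPM) than in control (7.77 ± 1.84) while vehicle livers averaged 5.72. Scube1, a secreted EGF-domain protein, averaged 10.9 ± 1.62, 5.73 ± 2.71 and 5.39 CPM in control, T3+T4 and vehicle livers. Mdfi, an inhibitor of MyoD-family factors, averaged 4.34 ± 0.67 and 6.67 ± 1.34 CPM in control and T3+T4 livers, and Agap2, an Arf GTPase-activating protein, 5.54 ± 0.955 and 8.2 ± 1.55. Jam2, a junctional adhesion molecule of endothelium, averaged 78.4 ± 9.87 CPM in control and 56.9 ± 5.28 in T3+T4 livers (-0.46, interval -0.7 to -0.23).

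**Figure D5:**
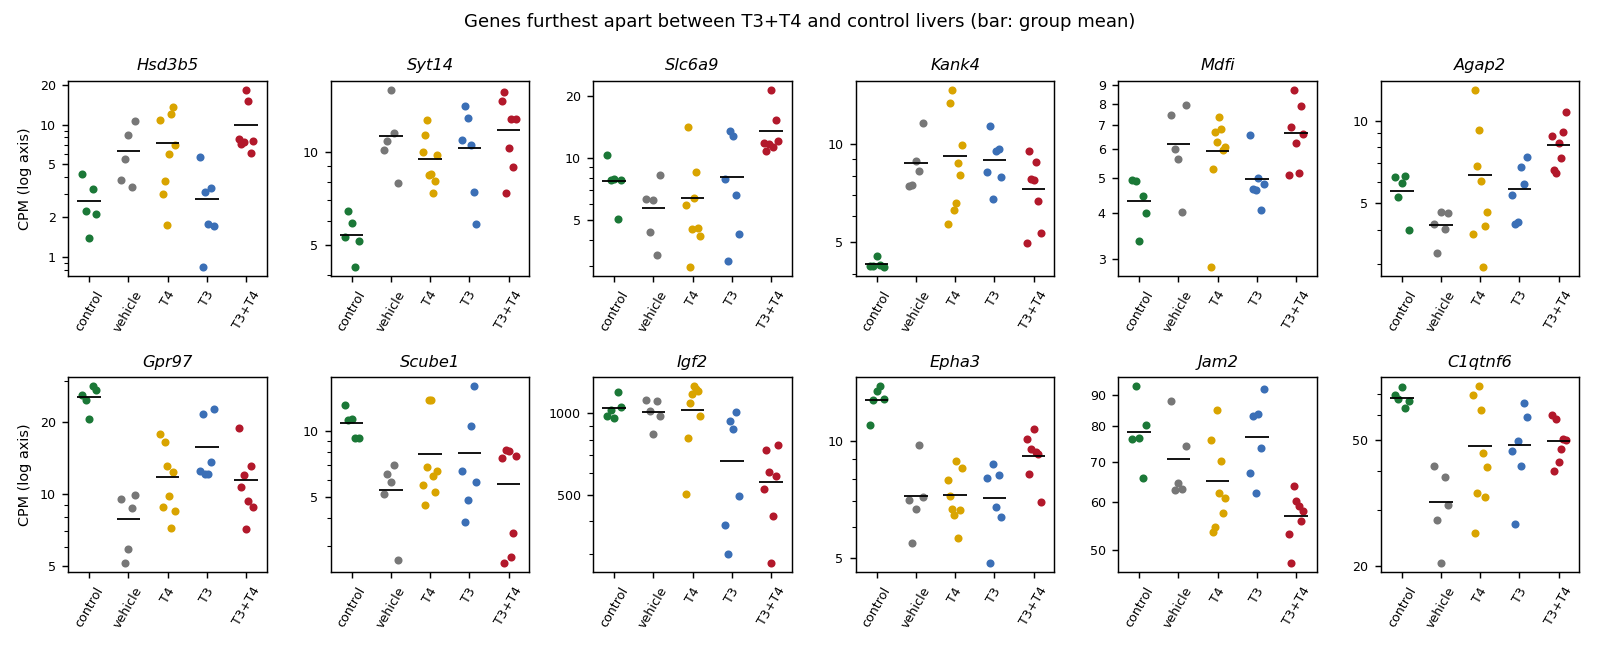
CPM on a log axis in all 5 groups for the 12 genes with the highest and lowest non-overlapping differences between T3+T4 and control livers, 1 panel per gene, with a point for each animal and a bar at the mean. No T3+T4 point overlaps a control point by construction, and vehicle livers lie level with T3+T4 livers for Syt14 (11.2 and 11.7 CPM on average) but with control livers for Igf2.

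T3 livers lacked the T4 of the combined treatment. Against them, T3+T4 livers had 2 genes higher and 0 lower by edgeR (0.0117% of genes), and 2165 genes had an unadjusted p under 0.05. The genes were Tkt and Aacs. DESeq2 called 155, and leaving out single libraries gave from 0 (without T3 61 or T3+T4 72, 84 or 85) to 110 (without T3+T4 78), with 40 without T3 60, 33 without T3 62, 18 without T3 65, 34 without T3 68 and 31 without T3+T4 79, so the number is not well fixed by 6 and 7 livers. Tkt, transketolase of the pentose phosphate pathway (ENSMUSG00000021957, chr14:30548359-30574720), had 99.1 to 121 CPM with a median of 111 in T3+T4 livers and 72.7 to 95 in T3 livers. The ranges did not overlap, as was the case for 40 genes in all (0.235%), and the difference was 0.37 ± 0.06 (edgeR adjusted p = 0.0197); the call was lost in 8 of 26 other settings, among them those without T3 61 or T3+T4 72, 84 or 85, with adjusted p up to 0.311 over the 26. Controls had 98.7, 96.3, 110, 115 and 103 CPM, which gave a T3+T4 minus control difference of 0.07 ± 0.07 (interval -0.07 to 0.2).

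Aacs, acetoacetyl-CoA synthetase, which feeds ketone bodies into lipid synthesis (ENSMUSG00000029482, chr5:125475814-125517410), had 20 to 54.4 CPM with a median of 29.2 in T3+T4 livers and 7.02 to 20.3 in T3 livers. The difference was 1.34 ± 0.22 (edgeR adjusted p = 0.0197), and the call was lost in 6 settings: with the 2 groups alone, within animals 54 to 85 (adjusted p = 0.0737), and without T3 61 or T3+T4 72, 84 or 85. Controls had 19.6, 16.1, 24.3, 20.7 and 21.3 CPM, below most T3+T4 livers (0.75, interval 0.28 to 1.21, adjusted p = 0.412). The 25 cholesterol genes had a median difference of 0.79 between T3+T4 and T3 livers with 0 called, and Thrsp one of 3.05 (edgeR adjusted p = 0.0557, DESeq2 adjusted p = 0.0036).

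Against T4 alone the combined treatment differed at more genes, with 693 higher and 776 lower by edgeR (8.61% of genes), of which 167 and 82 differed by more than 2-fold; 226 genes (1.32%) had non-overlapping libraries. With no filter on low counts the split was 1200 higher and 268 lower. The count dropped to 947 without T3+T4 72 and to 972 without T4 70. Of the cholesterol genes 20 of 25 were higher and 0 lower (4.06% of all genes were higher), with a median of 0.92, and of the oxidation genes 13 of 24 were lower and 0 higher (4.55%). The 8 pancreatic acinar markers were all higher in T3+T4 than in T4 livers, where their mean reached 5 CPM in 0 of 8 libraries, and muscle markers reached it in 3 of 8 T4 livers. Leaving out every library with raised acinar or muscle markers kept 3 T3+T4 and 5 T4 livers and gave 143 calls; the part of the acinar markers alone was not tested.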

How the data were processed

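Whole-liver RNA-seq of 31 mice was used, each library assigned to its group by source name and matched to its column by animal number. The authors deposited 1 table of counts per gene, made from TruSeq stranded mRNA libraries per the labels' protocols, with bcl2fastq, Trimmomatic, BWA 0.7.10 and DESeq named per the submitters' processing notes. The build those notes give is GRCh38, which is human, and the table's headers say mm10; the counting tool, its strand setting and its annotation are not given in the sources used here. The table holds 43629 genes, its lowest value is 1 and 50.1% of values are 1, so a count of 1 appears to have been added, and it was kept. Gene identifiers matched GENCODE M21 for 97.3% of genes, which gave exonic lengths and mm10 positions. Means per gene reach 1.98 counts per exonic base and go no further among genes over 500 bases.

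Counts were tested with edgeR 4.0.16 (R 4.3.3) by its quasi-likelihood test, with TMM scaling, filterByExpr and 1 mean per group over all 31 libraries, so that all groups share 1 estimate of spread. P-values were adjusted by Benjamini-Hochberg over 17057 genes at a threshold of 0.05; SE is the log2 difference divided by the root of its F statistic, and the 95% interval uses the fit's degrees of freedom. All adjusted p-values are edgeR's unless DESeq2 1.42.0 is named. The procedure was tested on simulated counts. Members and lists were chosen with earlier results of these data known. Named genes were, where edgeR called any, the largest changes between T3+T4 and control livers (0 eligible) and called list members (0); Pax8, Dio1, Dio2, Dio3 and Thrsp; the 6 largest rises and falls in vehicle livers with at least 5 CPM and no overlap; and the largest changes against T3. The genes furthest from control, up to 3 members per list, Aacs, and well-known members of each pathway were named after their values were seen. The members per list were those with the smallest adjusted p of vehicle against control. For the lipogenesis, cholesterol and oxidation lists, members with the smallest p of T3+T4 against control were added. Replicates are separate animals by their labels, and no pair of control or of T3+T4 libraries agreed within sampling noise. The main edgeR p-values set each difference against a spread between livers estimated over all 31 libraries, not from the 5 and 7 animals alone. Other settings were median-of-ratios and library-total scaling, filters, DESeq2, sex or library total as covariate, subsets of libraries, the added 1 subtracted and, chosen after seeing the data, correction of the ceiling. Some genes of these lists are not reported here by name.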

Additional observations from a re-analysis of the deposited data

Results flagged for a closer look

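Of 62 sets of values, each 1 measure in 1 group, examined for a library standing apart by Dixon's criterion, which chance meets in about 1 of 20 groups, 5 held one. Control 47 had 7.62 CPM of Slc4a9, above the other controls, and is also the control with raised acinar markers. T3+T4 animal 72 had 81.6 CPM of Clec2h and T3+T4 animal 79 had 21.3 CPM of Slc6a9, each above the rest of its group. Control 49 had 4.54 CPM of Kank4, apart from controls that otherwise lay very close together. T3+T4 animal 78 lay at a distance of 0.539 from the control mean, beyond every other T3+T4 liver, and is 1 of the 3 T3+T4 livers with raised acinar markers.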

How the results depend on the processing

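The comparison of T3+T4 and control livers gave 0 called genes in 19 of 25 other settings. It gave 50 with DESeq2, 2 with sex as a covariate (Dlk1 and Gpr97), 4 with DESeq2 after correction of the ceiling, and 0 to 4 when single libraries were left out, the highest without T3+T4 72. The number of genes bounded within 1.5-fold fell to 7637 within animals 54 to 85 and was 11747 to 12204 with single libraries left out. Within animals 54 to 85 the counts were 3 for vehicle against control, 794 for T3+T4 against vehicle, 0 against T3 and 703 against T4; this subset leaves 1 control and 2 vehicle livers, and the lone control is assumed to vary like the other groups. Without the libraries that carried acinar or muscle messages they were 689, 685 and, against T4, 143. With single libraries left out, vehicle against control gave 935 to 1604, T3+T4 against vehicle 1879 to 2831, against T3 0 to 110 and against T4 947 to 1738. The count against T3 was 13 with no filter, 0 with the 2 groups alone, 155 with DESeq2, 163 with DESeq2 and the ceiling corrected, 15 with edgeR and the ceiling corrected, 1 with sex and 91 with library total as a covariate; library total brought the count against T4 to 768. The cause of these changes was not tested. The distance of T3+T4 livers from control relative to vehicle livers was -0.247 without marker-carrying libraries (exact permutation p = 0.1, the smallest that size allows) and -0.198 to -0.159 with single libraries left out. Relative to T4 livers it was -0.055 with no filter and -0.136 without marker-carrying libraries, and it lost significance in both; with single libraries left out it was -0.119 to -0.083. Relative to T3 livers it was -0.134 to -0.064. None of the called results changed direction in these settings. No paired analysis was possible because the groups share no animal numbers. Depth limits the genes near the floor of 1 count, and the ceiling limits the 638 most abundant messages, whose differences are compressed.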
